A study of Arabidopsis thaliana with 9 samples.

Results

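The genes described here are 10 regulators of the zygote and the early embryo of Arabidopsis thaliana, followed in sorted sperm cells and in the vegetative nuclei of pollen tubes. They are LEC1 (AT1G21970), L1L (AT5G47670), LEC2 (AT1G28300), FUS3 (AT3G26790), ABI3 (AT3G24650), BBM (AT5G17430), WOX2 (AT5G59340), WOX8 (AT5G45980), SSP (AT2G17090) and YDA (AT1G63700), 10 of the 32833 loci in the deposited count table. They were chosen by locus code, with LEC1 taken because its level was higher in semi in vivo than in in vitro sperm and SSP because the sperm is known to supply its transcript to the zygote. The LEC1 difference between the sperm groups is therefore given as a description, with no test.

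The study asked how the transcripts of the male germline change while tubes grow through the pistil. There were 3 groups of 3 libraries. Semi in vivo sperm came from tubes that grew 2 h on Col-0 pistils, emasculated 16 h before use, and then 4 h from the cut pistil on medium. In vitro sperm and in vitro vegetative nuclei came from tubes grown for 6 h on medium without a pistil. All pollen came from a marker line carrying MGH3p::MGH3-GFP, a sperm histone fusion, and ACT11p::H2B-mRFP, a histone fusion under an actin promoter active in the vegetative cell. The genotype is otherwise given as wild type in the labels, and the fractions were sorted by fluorescence. RNA was amplified with Smart-seq2, a full-length cDNA method for very small inputs, without molecular identifiers or strand information, so reads of overlapping antisense genes cannot be separated.

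LEC1 and L1L encode B subunits of the trimeric factor NF-Y, which binds the CCAAT box with an A and a C subunit. LEC2, FUS3 and ABI3 encode B3 domain factors that bind the RY motif, and with LEC1 they drive embryo identity and the filling of the seed. BBM is an AP2 factor that can turn vegetative tissue into embryos, and in rice a BBM gene expressed from the sperm genome takes part in starting the embryo. WOX2 and WOX8 are homeobox factors that mark the apical and the basal daughter of the zygote. SSP is a membrane-bound pseudokinase of the BSK family. Its transcript is made in sperm and its protein in the zygote, where it activates the MAP kinase kinase kinase YDA. YDA acts through MKK4 and MKK5 and through MPK3 and MPK6, and WRKY2 is a target of that cascade which turns on WOX8.

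LEC1, BBM and SSP had the highest levels among the members in sperm and carry the results there. The 250 bases before each of them are printed 5′ to 3′ so that the letters can be read beside the levels. They were read from the RefSeq genome of build TAIR10.1 at the RefSeq gene starts, while the counts were made on TAIR10 and the count table holds no coordinates. LEC1 is on chromosome 1 and its upstream bases are chr1:7729650-7729899 (minus strand). The bases before BBM are chr5:5745749-5745998 (minus strand) and those before SSP are chr2:7437315-7437564 (minus strand). Capitals mark, on either strand, the CCAAT box (CCAAT), the site type bound by the sperm MYB factor DUO1 (AACCGT or AACCGC) and the RY motif (CATGCA), which do not overlap in these windows.
LEC1: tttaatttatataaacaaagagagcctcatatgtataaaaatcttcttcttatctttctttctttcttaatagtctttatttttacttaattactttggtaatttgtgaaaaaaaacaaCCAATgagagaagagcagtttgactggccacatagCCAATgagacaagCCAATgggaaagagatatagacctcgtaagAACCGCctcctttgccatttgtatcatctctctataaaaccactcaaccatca
BBM: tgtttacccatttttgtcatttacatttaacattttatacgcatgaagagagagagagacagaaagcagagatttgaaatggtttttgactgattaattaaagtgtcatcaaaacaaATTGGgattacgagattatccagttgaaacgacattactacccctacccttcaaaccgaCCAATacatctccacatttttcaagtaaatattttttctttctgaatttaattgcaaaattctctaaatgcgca
SSP: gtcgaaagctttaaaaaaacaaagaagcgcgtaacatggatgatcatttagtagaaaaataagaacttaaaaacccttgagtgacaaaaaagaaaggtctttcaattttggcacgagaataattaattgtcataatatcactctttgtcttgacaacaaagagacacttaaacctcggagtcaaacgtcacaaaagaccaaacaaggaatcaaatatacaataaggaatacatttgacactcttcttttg

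The LEC1 window held 3 CCAAT boxes, at 131 to 127, 96 to 92 and 83 to 79 bases before the start, and 1 DUO1-type match, AACCGC, at 53 to 48 bases. BBM had 2 CCAAT boxes, at 133 to 129 bases on the opposite strand and at 74 to 70 bases. SSP had no match to any of the 3 motifs. Among the other members, FUS3 had an RY motif at 25 to 20 bases and YDA a CCAAT box at 246 to 242 bases, and L1L, LEC2, ABI3, WOX2 and WOX8 had none. Of 27443 protein-coding genes, 46.0% had a CCAAT box in the same window, 10.4% a DUO1-type match and 8.4% an RY motif, so each match is also frequent elsewhere. A match describes the letters and is not a binding site shown here.

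**Figure D1:**
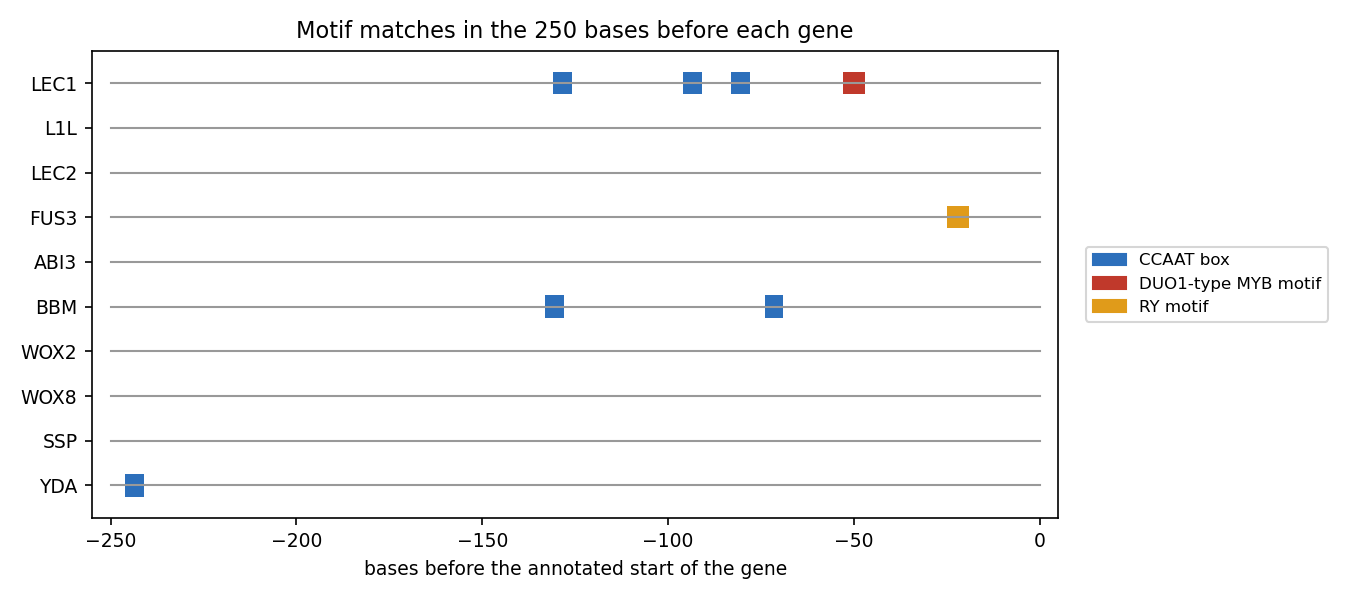
Motif matches in the 250 bases before the annotated start of each of the 10 genes. The x axis gives bases before the start and coloured blocks mark CCAAT boxes, DUO1-type MYB matches and RY motifs. LEC1 holds 3 CCAAT boxes and 1 DUO1-type match, while L1L, LEC2, ABI3, WOX2, WOX8 and SSP hold none.

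Total counts per library were 24005795 to 41118337 in semi in vivo sperm, 14470065 to 40525238 in in vitro sperm and 13768069 to 35157304 in vegetative nuclei. The sorted fractions matched their labels in sums of marker genes, though not every marker was present. The sperm marker GEX2 averaged 0.194 ± 0.193 CPM in semi in vivo sperm and 0.192 ± 0.167 CPM in in vitro sperm (SD, n = 3 each). Summed over 7 sperm markers (such as DUO1, HAP2 and DAZ3) the level was 23300 to 26000 CPM (counts scaled to the library total) in semi in vivo sperm, 17000 to 20000 CPM in in vitro sperm and 122 to 350 CPM in nuclei. Summed over 10 vegetative markers it was 41.3 to 73.6 CPM, 54.7 to 82.6 CPM and 30000 to 46200 CPM in the same order of groups. The number of genes with counts differed within groups. In vitro sperm library 2 had 26982 such genes, against 18742 and 17785 in the other in vitro sperm libraries, semi in vivo sperm library 3 had 11640, against 19219 and 19079, and nucleus library 1 had 7850, against 16217 and 12645. The number of the 10 regulators with counts moved along: 9, 9 and 5 in semi in vivo sperm, 8, 10 and 6 in in vitro sperm and 2, 4 and 4 in nuclei, in order of replicate number. Whether this detection difference sets the levels of the rarer members was not tested. In sorted pools, fewer cells with a transcript and less transcript per cell cannot be told apart, and a sperm library holds whole cells while a vegetative library holds nuclei.

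**Figure D2:**
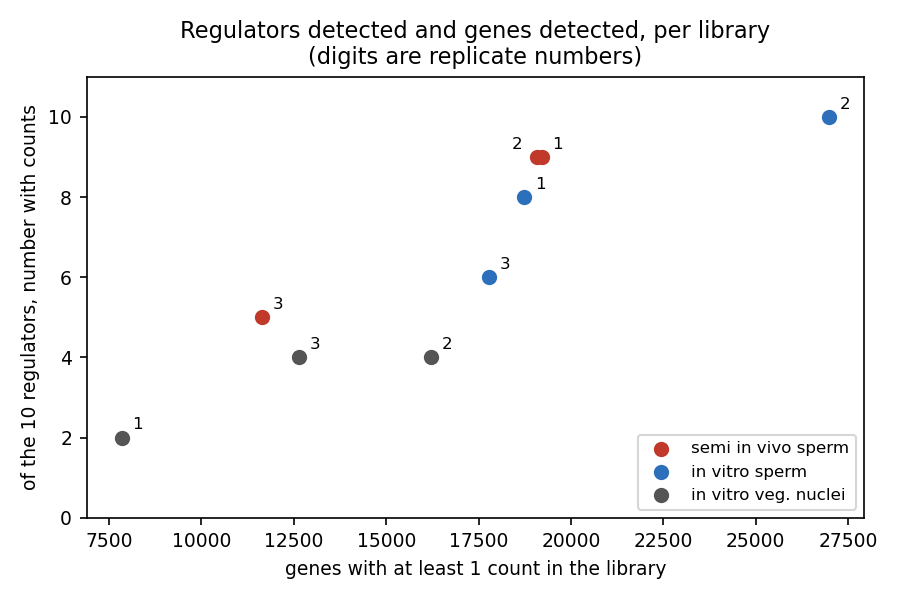
Number of the 10 regulators with counts (y axis) against the number of genes with at least 1 count (x axis) in each of the 9 libraries, with replicate numbers beside the points. In vitro sperm library 2 shows all 10 regulators at 26982 genes, and nucleus library 1 shows 2 at 7850 genes.

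Differences were tested with edgeR's quasi-likelihood test over all genes, on TMM-scaled counts, and called at a Benjamini-Hochberg adjusted p below 0.05. Against nuclei the TMM factors were 0.621 to 0.895 in in vitro sperm and 1.173 to 1.529 in nuclei, so a fitted fold lies further towards sperm than the ratio of the unscaled CPM means. Between the sperm groups they were 0.892 to 0.966 in semi in vivo and 1.018 to 1.157 in in vitro sperm. A fitted fold there lies further towards semi in vivo sperm than the unscaled ratio. Between the sperm groups, 5 of the 10 members passed the expression filter, and 0 of the 4 other than LEC1 were called by edgeR (0 at unadjusted p below 0.05, 0 by DESeq2), where 0.630% of the 14131 genes tested were called, 0.538% higher and 0.0920% lower (76 and 13 genes by edgeR, 177 and 170 by DESeq2). Overlap was read on unscaled CPM, which lies further towards in vitro sperm than the fitted folds. The groups overlapped for all 4, while 4.15% of all genes tested had every semi in vivo library above every in vitro one and 12.2% had the reverse. L1L, FUS3, ABI3, WOX8 and YDA failed that filter. Beside the members, 10 lists of related genes were read. Over these lists 0 of 72 tested genes were called by edgeR (8 at unadjusted p below 0.05, as were 1138 of all 14131 genes), with a median log2 fold change of -0.41 against -0.17 for all genes tested. Between in vitro sperm and nuclei 6 members were tested, and SSP and LEC2 were called, where 44.9% of 14061 genes were called, 30.7% higher and 14.3% lower. LEC1, LEC2, BBM and SSP passed the filter through the in vitro sperm libraries, since none of them reached its minimum in every nucleus library, and LEC2 had no counts in nuclei at all. These counts over the members are therefore a description and support no direction. The same 4 genes did not overlap between the groups and lay higher in in vitro sperm, as did 39.1% of all genes tested (24.9% lay lower). Over the lists, 19 of 63 tested genes were higher and 7 lower by edgeR. DESeq2 called 35 of the 63, and 5340 of all 14061 genes higher and 2904 lower. Of the 19, 7 had no counts in nuclei and passed the filter through in vitro sperm alone. NF-YC10, PKL, OLEO2 and WOX10 passed that way too, not reaching its minimum in every nucleus library. Among the lower genes, NF-YB7, NF-YC4, BZIP53, BSK7, MAPKKK5 and MKK5 did not reach it in every in vitro sperm library and passed through nuclei. The adjusted p values of all these genes are therefore a description and support no direction. The median log2 fold change was 1.54 over the lists and 1.70 over all genes with TMM, 1.58 and 1.57 with RLE, and 1.3 and 1.27 with upper-quartile scaling.

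**Figure D3:**
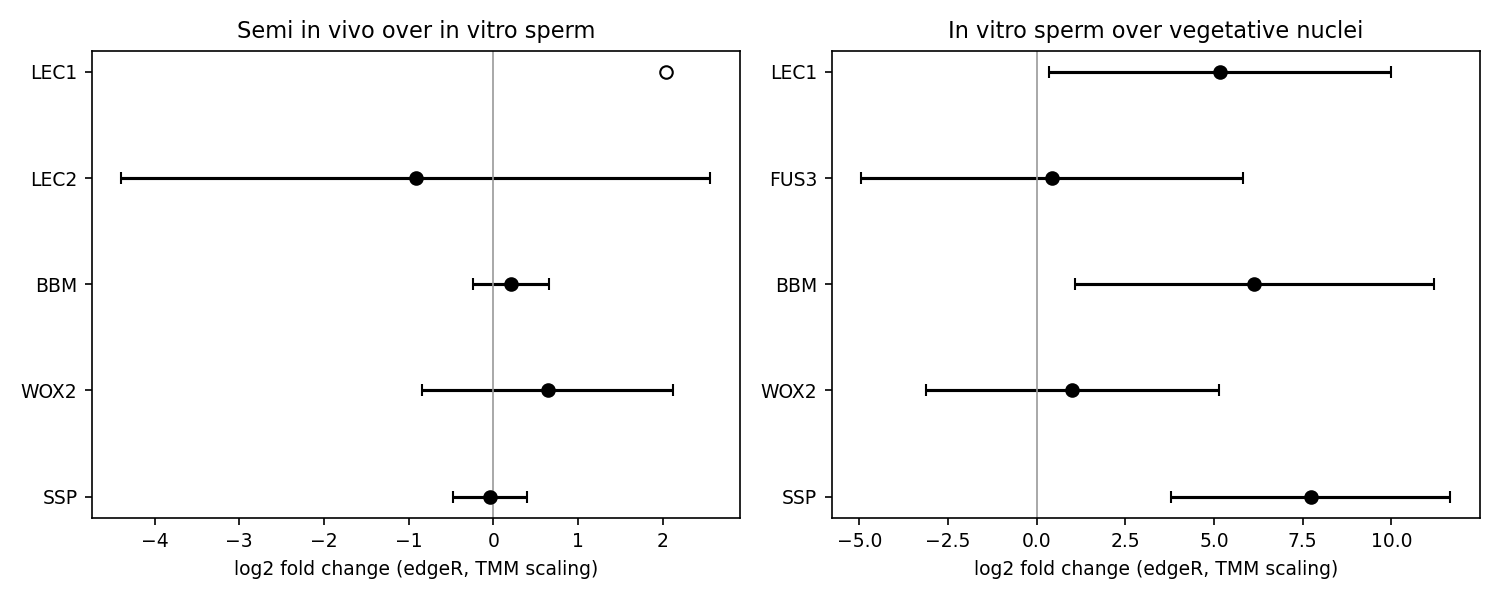
Log2 fold change (x axis, edgeR with TMM scaling) of the tested members, for semi in vivo over in vitro sperm and for in vitro sperm over vegetative nuclei. Lines are 95% intervals, the open LEC1 point has none because that contrast chose the gene, and LEC2 is left out of the panel against nuclei because it had no counts there. BBM and SSP lie close to 0 between the sperm groups and at 6.14 and 7.73 against nuclei.

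LEC1 was detected in every sperm library and in 1 of 3 nucleus libraries. Semi in vivo sperm had 11.7, 17.2 and 10.3 CPM of LEC1, in vitro sperm 1.80, 5.08 and 3.98 CPM and nuclei 0, 0.626 and 0 CPM. The lowest semi in vivo value lay above the highest in vitro one, and in vitro library 1, the shallowest of the sperm libraries, gave the lowest sperm value, from 26 counts. The means were 13.1 ± 3.64 CPM in semi in vivo sperm and 3.62 ± 1.67 CPM in in vitro sperm (SD, n = 3 each), a log2 fold change of 2.03 (4.08-fold, with TMM scaling). No p-value is attached, because this contrast chose the gene. By mean CPM per kilobase of exon (union exon length in the TAIR10.1 annotation), LEC1 lay above 90.7% of the 24046 genes with counts in semi in vivo sperm and above 85.2% of the 28603 genes with counts in in vitro sperm.

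Marker sums of pistil and female gametophyte cells were not higher in semi in vivo sperm. The summed level of 12 pistil markers was 1.16 to 4.83 CPM in semi in vivo sperm and 2.18 to 21.0 CPM in in vitro sperm, with 3 to 10 and 6 to 12 of the 12 markers counted per library and 21.0 CPM in in vitro library 2. The sum of 7 egg and synergid markers was 0.304 to 1.12 CPM in semi in vivo sperm and 0.845 to 2.90 CPM in in vitro sperm, with the egg gene EC1.4 at 0 in all semi in vivo libraries and EC1.2 at 0 in all in vitro ones. No pistil marker was at 0 over a whole sperm group. The vegetative sums given above overlap between the sperm groups. The sum of the sperm markers was higher in each semi in vivo library than in any in vitro library, mostly through DAZ3, at 15600 ± 1850 CPM in semi in vivo sperm and 10400 ± 1510 CPM in in vitro sperm (SD, n = 3 each), the 1 called gene of the 6 markers tested. HAP2 averaged 107 ± 32.6 CPM in semi in vivo sperm and 137 ± 35.7 CPM in in vitro sperm, and DUO1 49.9 ± 13.6 CPM and 62.5 ± 9.14 CPM, and neither was called. DAZ1 averaged 51.1 ± 3.63 CPM in semi in vivo sperm and 32.5 ± 2.34 CPM in in vitro sperm without overlap, and PCR11 8200 ± 404 CPM and 7460 ± 445 CPM, and neither was called by edgeR (adjusted p = 0.0995 and 0.615), while DESeq2 called 2 of the 6 higher. The part of these markers or of their sum in the LEC1 difference was not tested.

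Between in vitro sperm and nuclei, LEC1 had 378 and 22 counts over the 3 libraries of each group. Its log2 fold change was 5.18 (SE 2.05, 95% interval 0.35 to 10.0), and it missed the threshold (edgeR adjusted p = 0.0779), although the groups did not overlap. The call depends on the fit: DESeq2 gave an adjusted p = 0.00594 and a fit without nucleus library 2, the nucleus library with LEC1 counts, gave an edgeR adjusted p = 0.0183, while the other 5 fits with 1 library left out gave 0.114 to 0.172. The log2 fold change in those 5 was 3.67 without nucleus library 1 and 4.57 to 5.58 otherwise, and without nucleus library 2 no fold is given, since the nuclei were then at 0. These in vitro sperm libraries also entered the contrast for which LEC1 was picked. LEC1 passed the filter through them, so these adjusted p values are a description and support no direction.

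**Figure D4:**
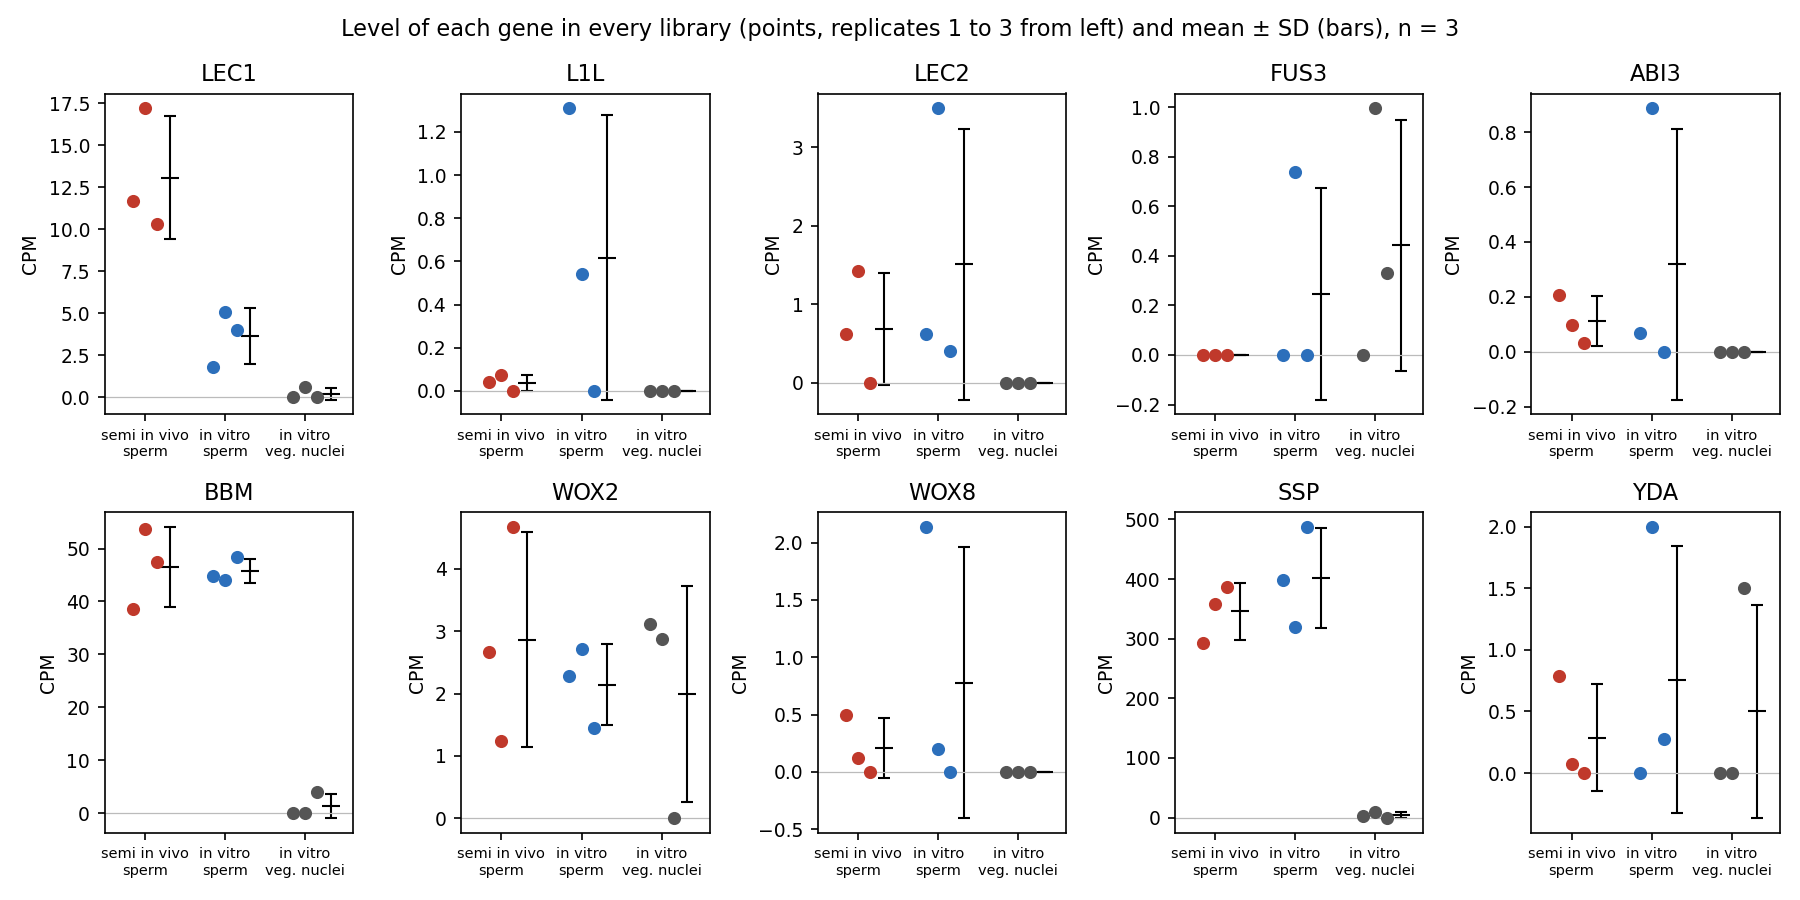
CPM of each of the 10 genes (y axis, a separate linear scale per panel) in the semi in vivo sperm, in vitro sperm and in vitro vegetative nucleus libraries. Points are libraries in order of replicate number and bars give the mean and SD of 3 libraries, an SD bar below 0 being a spread and not a level. LEC1 separates the sperm groups, SSP and BBM sit at like levels in both and near 0 in nuclei, and the other genes overlap between the sperm groups.

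L1L, the closest relative of LEC1, was near the detection limit. It had 0.0417, 0.0730 and 0 CPM in semi in vivo sperm, 1.31, 0.543 and 0 CPM in in vitro sperm and 0 CPM in all nucleus libraries, a total of 4, 41 and 0 counts. It failed the expression filter in both comparisons. The 0 in nuclei allows a level of up to 0.0393 CPM (3 counts over the group, counting error only).

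The LEC1-type and other B subunit genes of NF-Y were read as a family, from a list chosen by gene family. Of 8 further NF-YB genes, 2 passed the filter between the sperm groups and none was called by edgeR (1 at unadjusted p below 0.05, 0 by DESeq2). NF-YB8 had 213, 189 and 241 CPM in semi in vivo sperm and 211, 223 and 211 CPM in in vitro sperm, a log2 fold change of 0.19 (95% interval -0.19 to 0.57), with overlapping groups. NF-YB10 had 98.3 ± 7.01 CPM in semi in vivo sperm and 84.2 ± 17.5 CPM in in vitro sperm (SD, n = 3; log2 fold change 0.42, edgeR adjusted p = 0.575). Per kilobase of exon, NF-YB8 stood at 194 to 248 CPM per kilobase in semi in vivo sperm, against 10.6 to 17.7 for LEC1.

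Between in vitro sperm and nuclei 3 of the 8 were tested, 2 were higher in sperm and 1 was lower. Among all genes tested, edgeR called 30.7% higher and 14.3% lower. NF-YB8 had 211, 223 and 211 CPM in in vitro sperm and 2.11, 4.95 and 1.79 CPM in nuclei, a log2 fold change of 7.18 (SE 0.68, edgeR adjusted p = 0.000681). NF-YB10 averaged 84.2 ± 17.5 CPM in in vitro sperm and 8.96 ± 5.40 CPM in nuclei (SD, n = 3; edgeR adjusted p = 0.00413). NF-YB7 went the other way, with 0.0691, 0.691 and 0 CPM in in vitro sperm and 197, 135 and 142 CPM in nuclei (log2 fold change -8.14, SE 1.69, edgeR adjusted p = 0.0098). No library of the sperm groups reached 1 CPM of NF-YB7. It passed the filter through the nuclei, so its call supports no direction.

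The A and C subunits complete the trimer. Of 19 genes, 11 were tested between the sperm groups and 0 were called by edgeR (1 at unadjusted p below 0.05, 0 by DESeq2). Between in vitro sperm and nuclei 11 were tested, 6 were higher and 1 lower, and with RLE or upper-quartile scaling 6 or 5 were higher and 2 lower. By DESeq2 6 were higher and 3 lower. The edgeR shares over all genes tested were 30.7% higher and 14.3% lower. NF-YA1 averaged 106 ± 26.5 CPM in in vitro sperm and 8.69 ± 3.20 CPM in nuclei (SD, n = 3; edgeR adjusted p = 0.00179). NF-YA4, at 0 in all nucleus libraries, was at least 60.3-fold higher in in vitro sperm (edgeR adjusted p = 0.0142). The bound was 48.3-fold without in vitro library 1. NF-YA9 averaged 20.1 ± 3.75 CPM in in vitro sperm and 4.33 ± 2.50 CPM in nuclei (edgeR adjusted p = 0.0167). NF-YC3 averaged 25.2 ± 5.35 CPM in in vitro sperm and 91.5 ± 13.5 CPM in nuclei and was not called (edgeR adjusted p = 0.208). NF-YC4, named after its values were seen as the lower gene, stood at 0.230 ± 0.399 CPM in in vitro sperm and 48.6 ± 8.79 CPM in nuclei (edgeR adjusted p = 0.0264). NF-YC4 passed the filter through nuclei and NF-YA4 through in vitro sperm, so their calls support no direction.

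**Figure D5:**
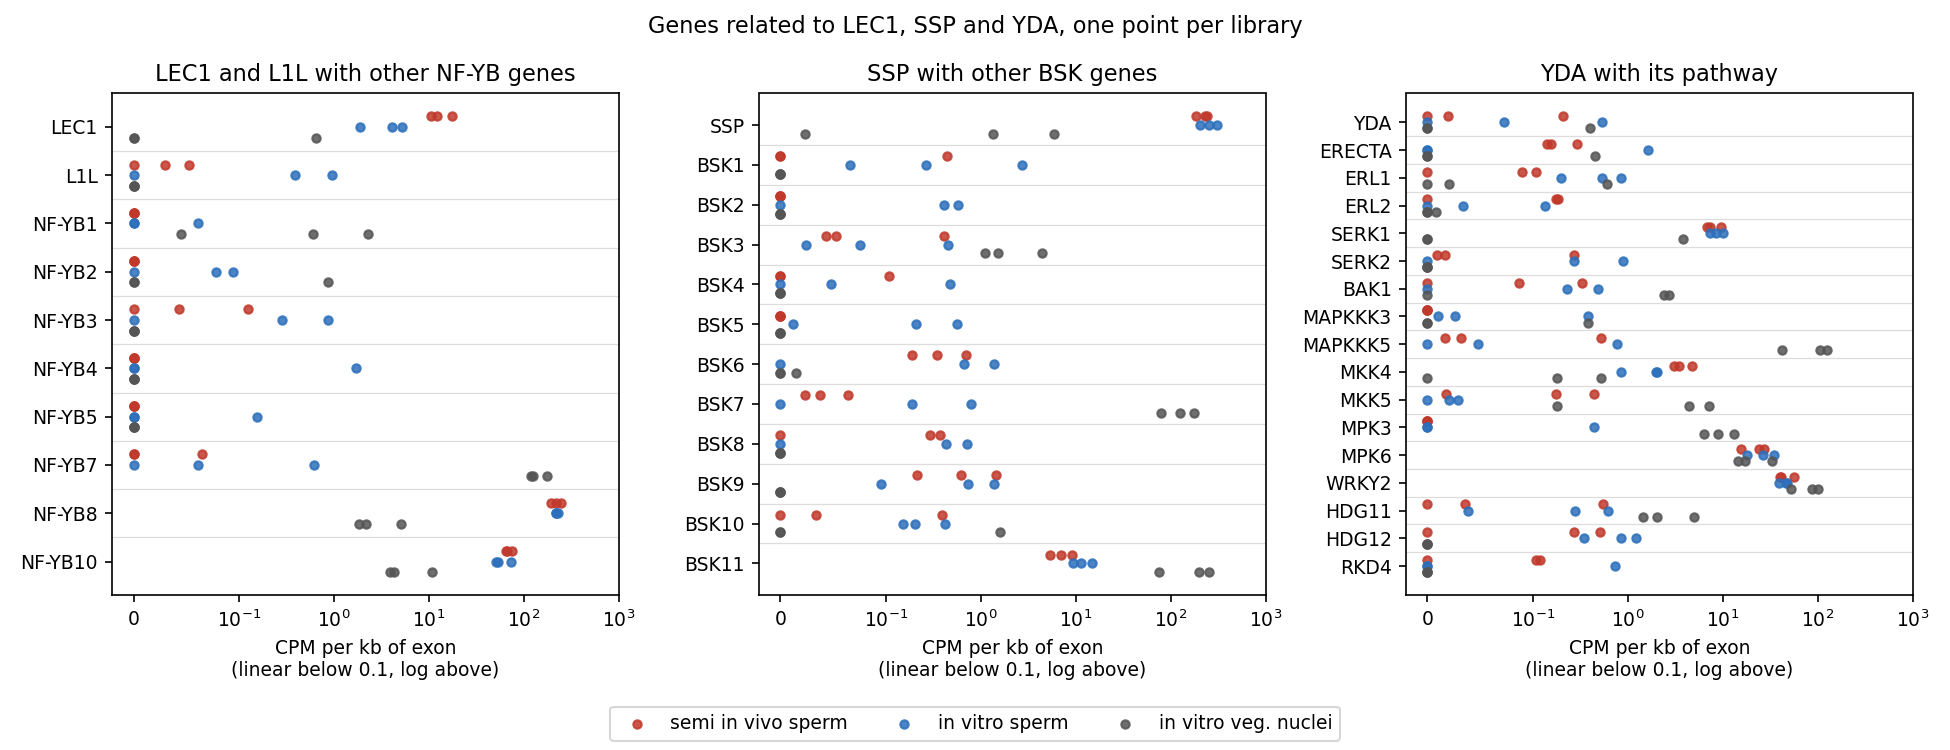
CPM per kilobase of exon (x axis, linear below 0.1 and log above) for LEC1 and L1L with other NF-YB genes, SSP with other BSK genes and YDA with genes of its pathway, with 1 point per library coloured by group. NF-YB8 lies at 194 to 248 in semi in vivo sperm, NF-YB7, BSK7 and BSK11 lie higher in nuclei, and YDA lies below 1 in every library.

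The B3 genes were rare. LEC2 had 0.625, 1.43 and 0 CPM in semi in vivo sperm, 0.622, 3.50 and 0.409 CPM in in vitro sperm and 0 CPM in every nucleus library. Its log2 fold change between the sperm groups was -0.92 with a 95% interval of -4.39 to 2.56 (edgeR adjusted p = 0.999), too wide to place it. In vitro sperm had at least 38.4-fold more LEC2 than nuclei (edgeR adjusted p = 0.0281), and at least 13.1-fold more without in vitro library 2. With no counts in nuclei it passed the filter through in vitro sperm alone, so its direction there was fixed beforehand. That call was lost with any 1 library left out, at edgeR adjusted p = 0.0505 to 0.0697.

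FUS3 was at 0 in all semi in vivo sperm libraries, which allows up to 0.0306 CPM over the group. It had 0, 0.740 and 0 CPM in in vitro sperm and 0, 0.996 and 0.329 CPM in nuclei, with overlapping groups (log2 fold change 0.44 with TMM scaling, 95% interval -4.94 to 5.83, edgeR adjusted p = 0.893). ABI3 had 0.208, 0.0973 and 0.0304 CPM in semi in vivo sperm, 0.0691, 0.888 and 0 CPM in in vitro sperm and 0 CPM in nuclei, from 10, 37 and 0 counts. It failed the filter in both comparisons. The single highest values of FUS3 and ABI3 in sperm both came from in vitro library 2, the library with the most genes detected.

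Genes known to silence the LEC and B3 genes outside the embryo were read from a list. Of 15 repressors, which include chromatin remodelling, Polycomb and VAL genes, 11 were tested between the sperm groups and 0 were called by edgeR (0 at unadjusted p below 0.05, 0 by DESeq2). Of 12 tested between in vitro sperm and nuclei, 3 were higher and 0 lower by edgeR (5 and 0 by DESeq2). Among all genes tested, edgeR called 30.7% higher and 14.3% lower. BMI1A, a Polycomb ring finger gene, averaged 735 ± 41.6 CPM in in vitro sperm and 16.4 ± 2.32 CPM in nuclei (SD, n = 3; log2 fold change 6.45, edgeR adjusted p = 0.000555). PKL, a chromatin remodeller whose loss leaves LEC1 on in roots, averaged 68.3 ± 9.56 CPM in in vitro sperm and 3.66 ± 3.23 CPM in nuclei (edgeR adjusted p = 0.0271). MSI1 was at least 252-fold higher in in vitro sperm (209-fold without in vitro library 2). PKL and MSI1 passed the filter through in vitro sperm, so their calls support no direction. In semi in vivo sperm BMI1A had 798 ± 71.4 CPM and PKL 68.5 ± 11.1 CPM (SD, n = 3).

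Seed maturation genes include those that LEC1 and the B3 factors switch on. Of 21, 10 were tested between the sperm groups and 0 were called by edgeR (2 at unadjusted p below 0.05, 0 by DESeq2). OLEO2, an oil body protein gene, averaged 16.0 ± 2.74 CPM in semi in vivo sperm and 9.59 ± 2.37 CPM in in vitro sperm (SD, n = 3; log2 fold change 0.92, edgeR adjusted p = 0.234). The oil body gene OLEO1 lay the other way, at 0 in all semi in vivo libraries (0 counts) and at 0.666 ± 0.415 CPM in in vitro sperm (70 counts, edgeR adjusted p = 0.366). The sperm groups did not overlap for OLEO2 or OLEO1. The median log2 fold change of the 10 was -0.97, against -0.17 for all genes tested. Some of the 10 were near the detection limit. In vitro library 2 had counts for 20 of the 21 genes, the other in vitro libraries for 10 and 13 and the semi in vivo libraries for 4 to 11. Without in vitro library 2 the median over all genes was -0.06, and its part in the median of the 10 was not tested. Of 8 tested between in vitro sperm and nuclei, OLEO2 and the cruciferin gene CRB were higher and BZIP53 was lower. The edgeR shares over all genes tested were 30.7% higher and 14.3% lower. OLEO2 averaged 9.59 ± 2.37 CPM in in vitro sperm and 0.308 ± 0.267 CPM in nuclei (edgeR adjusted p = 0.0146), and CRB, at 0 in nuclei, was at least 31.6-fold higher (15.7-fold without in vitro library 2). BZIP53, a transcription factor gene of seed genes, averaged 0.358 ± 0.331 CPM in in vitro sperm and 40.3 ± 11.1 CPM in nuclei (edgeR adjusted p = 0.0159). OLEO2 and CRB passed the filter through in vitro sperm and BZIP53 through nuclei, so these calls support no direction. AGL18, a MADS-box gene, was the most abundant of the list at 94.9 ± 7.45 CPM in semi in vivo sperm, 125 ± 5.71 CPM in in vitro sperm and 111 ± 47.9 CPM in nuclei, and was called in neither comparison (edgeR adjusted p = 0.999 and 0.133). On unscaled CPM every semi in vivo library lay below every in vitro sperm library in AGL18, as for 12.2% of all genes tested. With TMM scaling its log2 fold change between the sperm groups was -0.21 (95% interval -0.61 to 0.2).

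BBM had 38.6, 53.7 and 47.4 CPM in semi in vivo sperm, 44.9, 44.0 and 48.4 CPM in in vitro sperm and 0, 0 and 3.95 CPM in nuclei. The sperm groups overlapped, with a log2 fold change of 0.21 (95% interval -0.24 to 0.66, edgeR adjusted p = 0.999). In vitro sperm lay above nuclei without overlap, at a log2 fold change of 6.14 (SE 2.14, 95% interval 1.09 to 11.19), and just missed the threshold of 0.05 (edgeR adjusted p = 0.0523, and 0.00405 with DESeq2). All 108 nucleus counts of BBM came from library 3, and without that library, which leaves nuclei at 0, the edgeR adjusted p was 0.00094, while the other 5 fits with 1 library left out gave 0.0516 to 0.0959. The log2 fold change in those 5 was 5.0 without nucleus library 1 and 5.53 to 6.29 otherwise. Semi in vivo sperm set against the same nucleus libraries gave a log2 fold change of 6.16 and an edgeR adjusted p = 0.0447. That fit reuses the nucleus libraries and is not a separate test. BBM passed the filter through the sperm libraries, so all these p values are a description and support no direction.

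The AINTEGUMENTA-like genes related to BBM were low. Of 6, 4 were tested between the sperm groups and 0 were called by edgeR (1 at unadjusted p below 0.05, 0 by DESeq2). Of 3 tested between in vitro sperm and nuclei, 0 were called by edgeR (0 at unadjusted p below 0.05, 0 by DESeq2). Their summed level was 0 to 4.17 CPM in semi in vivo sperm, 2.26 to 6.59 CPM in in vitro sperm and 0.291 to 8.82 CPM in nuclei, below BBM alone in every sperm library. AIL5 averaged 0.917 ± 0.938 CPM in semi in vivo sperm, 1.56 ± 1.17 CPM in in vitro sperm and 1.24 ± 1.14 CPM in nuclei (SD, n = 3 each). PLT1 averaged 0.985 ± 0.859 CPM in semi in vivo sperm and 0.666 ± 1.15 CPM in in vitro sperm, and PLT2 0.368 ± 0.482 CPM in in vitro sperm and 2.20 ± 2.13 CPM in nuclei, with SDs close to or above the means.

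WOX2 had 2.67, 1.24 and 4.68 CPM in semi in vivo sperm, 2.28, 2.71 and 1.44 CPM in in vitro sperm and 3.12, 2.87 and 0 CPM in nuclei. The groups overlapped in both comparisons. The log2 fold change was 0.64 between the sperm groups (95% interval -0.84 to 2.12, edgeR adjusted p = 0.999) and 1.00 between in vitro sperm and nuclei (95% interval -3.12 to 5.13, edgeR adjusted p = 0.678). WOX8 had 0.500, 0.122 and 0 CPM in semi in vivo sperm, 2.14, 0.197 and 0 CPM in in vitro sperm and 0 CPM in nuclei, and failed the filter in both comparisons. Of 13 other WOX genes, 8 were tested between the sperm groups and 0 were called by edgeR (0 at unadjusted p below 0.05, 0 by DESeq2), while 2 of 5 tested were higher in in vitro sperm than in nuclei. Those were WOX4 and WOX10. WOX4 was at least 29.4-fold higher (23.0-fold without in vitro library 1). WOX10 averaged 1.68 ± 0.695 CPM in in vitro sperm and 0.0242 ± 0.0419 CPM in nuclei (SD, n = 3, edgeR adjusted p = 0.0303). Both passed the filter through in vitro sperm, so their calls support no direction. Among all genes tested, edgeR called 30.7% higher. PRS averaged 0.726 ± 0.862 CPM in semi in vivo sperm and 1.41 ± 1.5 CPM in in vitro sperm. WOX6 averaged 0.239 ± 0.413 CPM in in vitro sperm and 1.84 ± 1.69 CPM in nuclei and was not called (edgeR adjusted p = 0.622).

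SSP was by far the most abundant member in sperm. It had 293, 359 and 386 CPM in semi in vivo sperm, 399, 320 and 488 CPM in in vitro sperm and 2.11, 9.27 and 0.0366 CPM in nuclei, from 34496, 36637 and 356 counts in all. Per kilobase of exon it stood above 99.0% of the genes with counts in semi in vivo sperm and above 99.3% in in vitro sperm. The sperm groups overlapped, with a log2 fold change of -0.04 (95% interval -0.48 to 0.40, edgeR adjusted p = 1). SSP averaged 402 ± 83.7 CPM in in vitro sperm and 3.81 ± 4.85 CPM in nuclei (SD, n = 3 each). The TMM-scaled fit put in vitro sperm 212-fold above nuclei, a log2 fold change of 7.73 (SE 1.67, 95% interval 3.79 to 11.66, edgeR adjusted p = 0.0113). The size of this difference rests on the nucleus libraries: the log2 fold change was 6.62 without nucleus library 1, 9.30 without library 2 and 7.13 without library 3. SSP passed the filter through the in vitro sperm libraries, so its call is a description and supports no direction. The call held with each library of either group left out in turn (edgeR adjusted p = 0.00118 to 0.0451). It was lost when in vitro sperm library 2 and nucleus library 1 were both left out (log2 fold change 6.91, edgeR adjusted p = 0.0683), a pair chosen after seeing the data.

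The other BSK genes, kinases of brassinosteroid signalling, were read as a further list. Of 11, 6 were tested between the sperm groups and 0 were called by edgeR (0 at unadjusted p below 0.05, 0 by DESeq2). Of 4 tested between in vitro sperm and nuclei, 0 were higher and 2 lower by edgeR (0 and 3 by DESeq2). The edgeR shares over all genes tested were 30.7% higher and 14.3% lower. BSK3 and BSK10 were not called by edgeR. The other 7 failed the filter, and of these BSK1, BSK2, BSK4, BSK5, BSK8 and BSK9 had 18 to 254 counts over the in vitro sperm libraries and 0 in nuclei, and BSK6 92 and 1. BSK7 had 0, 2.05 and 0.491 CPM in in vitro sperm and 206, 327 and 461 CPM in nuclei (log2 fold change -7.41, SE 1.56, edgeR adjusted p = 0.0104). It passed the filter through nuclei, so its call supports no direction. BSK11 had 11.1, 14.4 and 18.9 CPM in semi in vivo sperm. There it lay below in vitro sperm without overlap on this unscaled measure, but was not called (edgeR adjusted p = 0.736). It had 19.4, 23.6 and 30.3 CPM in in vitro sperm and 154, 410 and 523 CPM in nuclei (log2 fold change -2.85, SE 0.59, edgeR adjusted p = 0.00944). Per kilobase of exon no other BSK gene exceeded 14.7 CPM per kilobase in any sperm library, against a mean of 219 ± 30.2 for SSP in semi in vivo sperm. Reads shared among BSK genes or among the other gene families here could be split between copies, which leaves single values uncertain.

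YDA itself was barely counted. It had 0.791, 0.0730 and 0 CPM in semi in vivo sperm, 0, 2.0 and 0.273 CPM in in vitro sperm and 0, 0 and 1.5 CPM in nuclei, and failed the filter in both comparisons. Each group had at least 1 library without counts. Of 16 further genes of its pathway, from the ERECTA receptors to the WOX8 activators, 11 were tested between the sperm groups and 0 were called by edgeR (1 at unadjusted p below 0.05, 0 by DESeq2). WRKY2 had 139 ± 26.3 CPM in semi in vivo sperm and 135 ± 13.4 CPM in in vitro sperm, and MPK6 38.1 ± 9.97 CPM and 45.6 ± 14.4 CPM (SD, n = 3 each). Neither was called, with 95% intervals of the log2 fold change of -0.20 to 0.64 and -0.68 to 0.52. MKK4, a kinase directly below YDA, averaged 7.60 ± 1.82 CPM in semi in vivo sperm and 3.24 ± 1.31 CPM in in vitro sperm without overlap. Its log2 fold change was 1.42 (95% interval 0.49 to 2.36), and it was the gene at unadjusted p below 0.05, but it was not called (edgeR adjusted p = 0.215). The receptor gene ERL1 lay the other way without overlap. It averaged 0.230 ± 0.202 CPM in semi in vivo sperm and 1.85 ± 1.15 CPM in in vitro sperm (edgeR adjusted p = 0.823).

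Of 11 pathway genes tested between in vitro sperm and nuclei, 1 was higher and 2 were lower by edgeR (2 and 4 by DESeq2). Among all genes tested, edgeR called 30.7% higher and 14.3% lower. MAPKKK5, a close relative of YDA, averaged 0.769 ± 1.22 CPM in in vitro sperm and 260 ± 124 CPM in nuclei (SD, n = 3; log2 fold change -7.16, edgeR adjusted p = 0.0174). MKK5 averaged 0.0395 ± 0.0356 CPM in in vitro sperm and 9.48 ± 8.52 CPM in nuclei (edgeR adjusted p = 0.0243). MAPKKK5 and MKK5 passed the filter through nuclei, so their calls support no direction. MPK3 had 0 CPM in all semi in vivo sperm libraries and 0, 0.814 and 0 CPM in in vitro sperm. In nuclei MPK3 had 16.6, 11.7 and 24.3 CPM, and it was not among the genes called by edgeR. The homeobox gene HDG12, at 0 in nuclei, was at least 65.5-fold higher in in vitro sperm (48.3-fold without in vitro library 2). It passed the filter through in vitro sperm alone, so its call supports no direction. WRKY2 averaged 135 ± 13.4 CPM in in vitro sperm and 244 ± 77.4 CPM in nuclei, and every nucleus library lay above every in vitro sperm library on this unscaled measure. With TMM scaling its log2 fold change was 0.11 (95% interval -0.87 to 1.09), the other direction, and it was not called (edgeR adjusted p = 0.849).

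RKD genes, RWP-RK factors of the egg cell and the early embryo, and genes of embryo patterning were looked at last. RKD5 averaged 14.3 ± 2.96 CPM in semi in vivo sperm and 15.8 ± 1.26 CPM in in vitro sperm (SD, n = 3; log2 fold change 0.04, edgeR adjusted p = 1), and was higher in in vitro sperm than in nuclei, which had 3.26 ± 3.07 CPM (edgeR adjusted p = 0.0215). RKD1 averaged 0.0636 ± 0.0900 CPM in semi in vivo sperm and 2.13 ± 1.81 CPM in in vitro sperm without overlap, from 5 and 232 counts. It was not called by edgeR (adjusted p = 0.376) but was the 1 gene of all these lists called by DESeq2 between the sperm groups. Of 17 patterning genes, 7 were tested between the sperm groups and 0 were called by edgeR (1 at unadjusted p below 0.05, 0 by DESeq2). Of 4 tested between in vitro sperm and nuclei 2 were higher, GN, a vesicle traffic regulator of auxin transport, at 74.3 ± 18.7 CPM in in vitro sperm and 5.05 ± 1.71 CPM in nuclei (edgeR adjusted p = 0.00159), and ATML1, at least 56.8-fold (24.4-fold without in vitro library 2). DESeq2 called 3 of the 4 higher. ATML1 passed the filter through in vitro sperm alone, so its call supports no direction. Among all genes tested, edgeR called 30.7% higher. In semi in vivo sperm GN averaged 78.1 ± 16.1 CPM (SD, n = 3; edgeR adjusted p = 0.999 against in vitro sperm).

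Per kilobase of exon, SSP led the order of the members in semi in vivo sperm at 219 ± 30.2 CPM per kilobase, followed by BBM at 20.3 ± 3.30 and LEC1 at 13.5 ± 3.76 (SD, n = 3). BBM, at 16.8 to 23.4, and LEC1, at 10.6 to 17.7, overlapped there. WOX2 came next at 2.24 ± 1.36, and the other 6 members were below 1 on this scale. In in vitro sperm SSP stood at 254 ± 52.9, BBM at 19.9 ± 1.01 and LEC1 at 3.74 ± 1.73, and LEC1, at 1.86 to 5.25, overlapped WOX2, at 1.13 to 2.13. BBM lay above LEC1 in all in vitro sperm libraries.

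Genes most like LEC1 and SSP were taken by the Pearson correlation of log2 CPM over all 9 libraries, among 17133 genes, and are a description, since the libraries share their groups and depth. The 5 closest to LEC1 were AT3G01295 (r = 0.991), AT5G03380 (0.99), MLO6 (0.99), DML1 (0.987) and AT5G60030 (0.987). AT3G01295 averaged 109 CPM in semi in vivo sperm, 29.7 CPM in in vitro sperm and 0.578 CPM in nuclei. DML1, which encodes a DNA glycosylase of active demethylation, averaged 6.00, 3.65 and 0.133 CPM in the same groups. The 5 closest to SSP were emb1967 (0.998) and, at 0.997 each, BRCA1, AT5G54970, RCI3 and PPa1. BRCA1, a DNA repair gene, averaged 250 CPM in semi in vivo sperm, 315 CPM in in vitro sperm and 6.92 CPM in nuclei.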

How the data were processed

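As deposited by the authors, the values are unscaled gene counts of 9 libraries. Per the submitters' processing notes, the authors used Trim Galore, HISAT2, featureCounts and the TAIR10 genome. Versions, gene set, strand setting and the treatment of multiply mapped reads were not given in the sources read. For each comparison its 6 libraries alone were fitted in edgeR 4.0.16 (R 4.3.3), with filterByExpr at a minimum count of 10, TMM, a robust quasi-likelihood fit, and Benjamini-Hochberg adjustment over all genes tested at 0.05. CPM levels are counts over the library total, without TMM. Bounds for genes at 0 use 3 counts over the group and cover counting error only. Nothing says that replicates came from separate plants or cultures, so p-values measure the spread between libraries, which may be technical. No 2 libraries of a group were near-duplicates.

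The members and lists were chosen with earlier results of these data known. Named genes are the members and, per list and comparison, up to 3 called genes of smallest adjusted p and the 2 most abundant genes, plus the 5 genes most like LEC1 and SSP. Outside that rule, GEX2, HAP2, DUO1, DAZ1, EC1.2, EC1.4, NF-YC4, NF-YC10, OLEO1, ERL1, MKK4 and MPK3 were named after their values were seen. The same holds for the BSK genes other than BSK7, BSK9 and BSK11. List codes that carry another symbol in the reference (BMI1B, BZIP67, AIL1, ZAR1, HTR10, DMP9, BUPS1, BUPS2) were left out. The alternatives tried were other scalings (RLE, upper quartile), DESeq2 1.42.0, no filter, a filter of 5 CPM in 3 libraries, a replicate block, all 9 libraries, semi in vivo sperm against nuclei and each library left out, also for the bounds against nuclei, which was added after seeing the data. The fits were tested on simulated data.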

Additional observations from a re-analysis of the deposited data

How the results depend on the processing

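Between the sperm groups, 89 genes were called by edgeR, 347 by DESeq2, and by edgeR 150 with no expression filter, 165 with the 5 CPM filter and 223 with the replicate block. With 1 library left out edgeR called 51 to 123, with 51 without in vitro sperm library 1. All 9 libraries in 1 fit gave 0 (996 at unadjusted p below 0.05), and leaving out semi in vivo library 3 and in vitro library 2, chosen after seeing the data, gave 0 (1019 at unadjusted p below 0.05); the cause was not tested. Against nuclei 6320 genes were called, 4314 higher and 2006 lower. The count was 5790 with the replicate block and 3552 to 5854 with 1 library left out, with 3552 without in vitro sperm library 1. The split was 2433 and 2352 with no filter, and 2307 and 2536 without in vitro library 2 and nucleus library 1. The LEC1 log2 fold change between the sperm groups was 1.77 to 2.29 over the listed alternatives, and 2.39 without both libraries. With libraries left out SSP ran between -0.34 and 0.21 there, at 0.12 without semi in vivo library 1 and 0.21 without in vitro library 3, and LEC2 between -2.01 and 1.1, at 0.55 without in vitro library 2 and 1.1 without both libraries. FUS3 against nuclei turned to -0.14 with upper-quartile scaling, -1.12 with no filter, -1.35 with the block, -1.25 without nucleus library 1 and -7.09 without in vitro library 2 and nucleus library 1, against up to 0.99 with 1 other library left out. LEC2 and BBM against nuclei had edgeR adjusted p = 0.0736 and 0.0233 with no filter. With the block, BBM and LEC1 had edgeR adjusted p = 0.000128 and 0.0454 against nuclei, and no other call on a member changed with it. All 9 libraries in 1 fit also brought LEC1 (edgeR adjusted p = 0.0185) and BBM (0.0156) past the threshold against nuclei, as did the 5 CPM filter for BBM (0.0436). Whether the replicate numbers pair the libraries cannot be settled with so few libraries. The deviations of same-numbered libraries correlated at -0.006, 0.064 and 0.170 between the sperm groups and at 0.023, 0.066 and 0.004 between sperm and nuclei. Not every library correlated best with its own number.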
